A study of Mus musculus with 6 samples.

Results

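The skin connexin genes described here are Gja1, Gjb2, Gjb5 and Gjb6, 4 of the 56941 genes in the count table, picked by their gene names. Hair follicle stem cells (HFSCs), sorted from dorsal skin as CD34+ and α6-integrin+ cells, were profiled by total RNA sequencing in female mice at postnatal day (PD) 68. Both genotypes carried Dab2 fl/fl alleles on the B6;129S4-Dab2tm1Cpr/J strain and received tamoxifen at 75 mg/kg on 5 consecutive days. The 3 libraries labelled WT came from mice without Cre, and the 3 labelled Dab2-cKO from mice with a tamoxifen-inducible Cre under the K14 promoter, which is active in basal keratinocytes and not in the mesenchymal or immune cells of skin. Whether a library holds cells of 1 mouse or of several was not given in the sources used here. Libraries held 7040032 to 11696457 counts. Mitochondrial genes took 13.0% to 14.4% of the counts in WT libraries and 19.1% to 20.3% in those labelled Dab2-cKO. The factors that scale libraries for their composition (TMM) were 1.11 to 1.21 and 0.85 to 0.88, in the same order.

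Connexins are membrane proteins that assemble into hemichannels, and hemichannels of adjoining cells dock to form gap junctions, through which ions and small metabolites pass from cell to cell. In skin, Gja1 is the most widely expressed connexin gene, while the β connexins Gjb2 and Gjb6 are known from inherited skin disorders and deafness, and Gjb5 from the epidermis. The hair follicle and the interfollicular epidermis carry different sets of connexins in their layers, so the set found in a cell sample depends on which layers it contains.

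The targeted gene, Dab2, had 304, 368 and 362 counts in WT replicates 1 to 3 and 1504, 1130 and 1259 in the libraries labelled Dab2-cKO, so it was higher in the libraries labelled as knockout. Genotypes are therefore given as the libraries are labelled, and each direction below rests on these labels. The count columns of the knockout are named FL-FL, and were assigned to it by the title of the series, although both genotypes carry floxed alleles. Of 10 markers used for the HFSC bulge, 8 were higher and 2 lower in the libraries labelled Dab2-cKO, and their sum was 2131 to 2446 normalized CPM in WT against 3715 to 3803. The list includes Krt5, Krt14 and Itga6, which basal keratinocytes outside the bulge also express. The sum is set mostly by its most abundant genes, so it does not measure the number of bulge cells. Cd34 (log2 fold change 1.80), Nfatc1 (1.32) and Krt15 (0.84) were among the higher ones, and Sox9 (-1.45) and Lhx2 (-1.43) were lower. Markers of other cells were present in every library. The 12 markers of matrix, inner root sheath and hair shaft were all lower, with a sum of 24321 to 29232 CPM in WT against 251 to 259. In the same order, the sum of 10 markers of differentiated epidermis was 2068 to 2410 and 8065 to 8087, that of 6 fibroblast markers 10607 to 12826 and 36995 to 39050, and that of 6 endothelial markers 96.6 to 114 and 379.5 to 384. Of the 10 markers of differentiated epidermis, 8 were higher and 2 lower. Also higher were 6 of 6 markers of infundibulum and sebaceous gland and 5 of 6 of immune cells. So were 5 of 5 of skeletal muscle and 4 of 4 of adipocytes. Of the 8 markers of the companion layer and inner bulge, 5 were lower and 1 higher. Lower as well were 4 of 5 markers of melanocytes and 7 of 7 of proliferation. These counts are of genes called by edgeR at an adjusted p under 0.05. Among all 32149 genes tested, 16.8% were called higher and 11.5% lower. With a filter at a mean count of 50, 4461 of 14801 genes were called higher and 4062 lower. No marker in these lists was at 0 in all libraries, and the part of these cells in the connexin results was not tested. In bulk RNA, fewer cells of a type and less RNA per cell cannot be told apart.

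The stretches before the 4 genes are shown because 3 of the genes differed strongly between the genotypes and 1 did not. The 250 bases before the start site in RefSeq occurred once, letter for letter, on each gene's chromosome in GRCm39. The RefSeq start lay 155 (Gja1), 81 (Gjb2), 44 (Gjb5) and 19 (Gjb6) bases inside the gene as annotated by GENCODE, so only the bases before the GENCODE gene are printed, 5′ to 3′ on the gene's strand. Capitals mark matches, on either strand, to the GC box GGGCGG, the TATA box TATAAA, the AP-1 motif TGANTCA and the TCF/LEF motif CTTTGAT. The printed stretches lie at chr10:56253146-56253240 (plus strand) for Gja1, chr14:57342241-57342409 (minus strand) for Gjb2, chr14:57371088-57371318 (minus strand) for Gjb6 and chr4:127252002-127252207 (minus strand) for Gjb5.
Gja1: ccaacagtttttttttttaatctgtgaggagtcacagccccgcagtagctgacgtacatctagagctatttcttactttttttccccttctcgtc
Gjb2: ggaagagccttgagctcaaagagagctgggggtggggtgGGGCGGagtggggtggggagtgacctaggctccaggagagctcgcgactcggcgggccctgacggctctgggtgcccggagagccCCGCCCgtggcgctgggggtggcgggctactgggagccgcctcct
Gjb6: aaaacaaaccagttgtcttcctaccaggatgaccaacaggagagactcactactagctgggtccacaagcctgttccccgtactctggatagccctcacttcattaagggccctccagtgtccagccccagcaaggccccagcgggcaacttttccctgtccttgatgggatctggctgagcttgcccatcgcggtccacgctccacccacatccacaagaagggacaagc
Gjb5: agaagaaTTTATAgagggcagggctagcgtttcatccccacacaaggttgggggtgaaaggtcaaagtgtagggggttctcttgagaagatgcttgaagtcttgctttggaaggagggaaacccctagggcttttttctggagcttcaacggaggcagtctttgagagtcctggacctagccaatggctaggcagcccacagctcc
In the 250 bases, Gja1 held 1 AP-1 match, at -19 from the RefSeq start and thus inside the GENCODE gene and not printed, a motif present in 6.75% of the 32851 stretches of the same length in the RefSeq table. Gjb2 held GC box matches at -211 and -126, and 32.7% of the stretches held at least 1. Gjb2 was also the richest of the 4 in G and C, at 69.2% against a median of 52.4% over all stretches, with 18 CG dinucleotides against a median of 6. In Gjb5 a TATA box match lay at -243, far from the start site, and 12.4% of stretches had that motif. No match to any of these letters was found before Gjb6, and none of the 4 genes had the TCF/LEF letters, which 3.21% of the stretches held.

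Gja1, Gjb2 and Gjb6 fell by 4.70- to 48.4-fold, while the level of Gjb5 overlapped between the genotypes. By edgeR's quasi-likelihood test at an adjusted p under 0.05, 3 of the 4 genes were lower in the libraries labelled Dab2-cKO and 0 were higher. Among all 32149 genes tested, 11.5% were lower and 16.8% higher. With a filter at a mean count of 50, 4062 of 14801 genes were lower and 4461 higher, and again 3 of the 4 members were lower. The median log2 fold change of the 4 genes was -2.92, and that of all genes tested was -0.02. All 3 also differed by over 1.5-fold, which, together with the call, 7.19% of all genes did in this direction. In these 3 genes every library labelled Dab2-cKO lay under every library labelled WT, which was so for 17.7% of all genes.

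**Figure D1:**
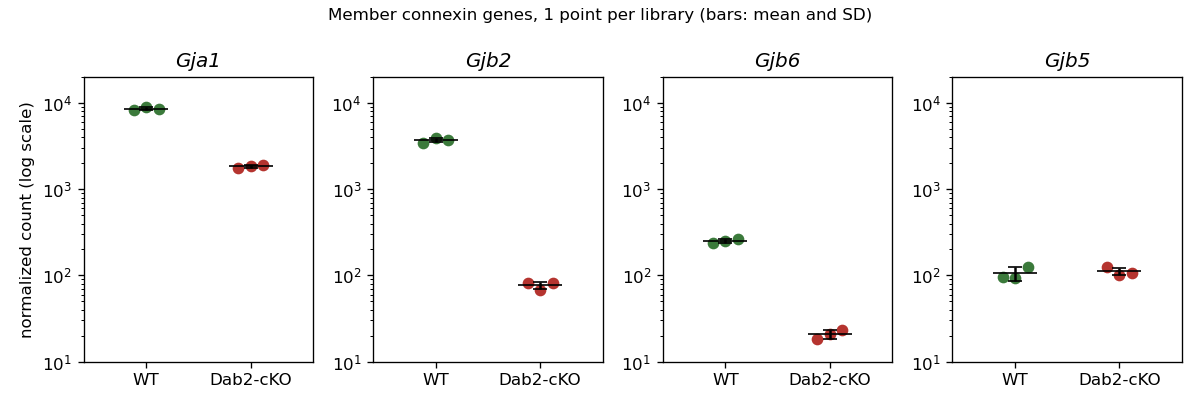
Normalized counts (log axis) of the 4 skin connexin genes, with 1 point per library and bars for the mean and SD of the 3 libraries of each genotype. Gja1, Gjb2 and Gjb6 are lower in each library labelled Dab2-cKO than in each labelled WT, and the points of Gjb5 overlap.

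Gja1 encodes connexin 43, the gap junction protein found in most tissues. It lies on chromosome 10 of GRCm39 from 56253241 to 56278609 (ENSMUSG00000050953, plus strand). The normalized count of Gja1, which is the count scaled to a common effective library size, was 8335, 8962 and 8644 in WT replicates 1 to 3. In the libraries labelled Dab2-cKO it was 1751, 1873 and 1898. The 3 libraries of a genotype thus lay close together, at 8647 ± 313 and 1841 ± 78.9 (SD, n = 3 each). Gja1 was 4.70-fold lower, a log2 fold change of -2.23 (SE 0.07, edgeR adjusted p = 4.92e-39), and 0.852% of all genes fell by as much or more.

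Gjb2, which encodes a β connexin of epithelia, had the largest fitted fall of the 4. It has its 2 exons between 57335919 and 57342240 on the minus strand of chromosome 14 (ENSMUSG00000046352). The WT replicates 1 to 3 had 3482, 3946 and 3777 normalized counts, and those labelled Dab2-cKO had 82.0, 67.9 and 80.6. The lowest WT library was far above the highest of the other genotype, where 59 to 86 counts were left. The means were 3735 ± 235 and 76.8 ± 7.77 (SD, n = 3 each). The fitted fall was 48.4-fold, a log2 fold change of -5.60 (SE 0.10, edgeR adjusted p = 1.87e-55). What remained of Gjb2 was above the 17.7 normalized counts of background that the median of the chemosensory receptor genes, which HFSCs are not known to use, would give over exons of its length. A fall of this size or more was seen in 62 genes, 0.193% of those tested.

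Gjb6 lies next to Gjb2 on the same strand of chromosome 14, from 57360757 to 57371087 (ENSMUSG00000040055). It encodes the β connexin altered in hidrotic ectodermal dysplasia, a disorder of hair, nails and palms. WT replicates 1 to 3 gave 236, 251 and 264 normalized counts, and the libraries labelled Dab2-cKO 18.1, 20.7 and 23.2, from 18 to 21 counts each, with no overlap. From 250.3 ± 14 to 20.7 ± 2.53 (SD, n = 3 each), Gjb6 fell 12.1-fold (log2 fold change -3.60, SE 0.19, edgeR adjusted p = 4.27e-27). Over exons as long as those of Gjb6, the same background came to 18.6 normalized counts. The Gjb6 level in the libraries labelled Dab2-cKO was thus close to that background and could not be told from it. The receptor median was also subtracted from every connexin, with values under it set to 0. The share of Gjb6 in the summed connexin level then went from 2.82% to 0.14% and that of Gjb2 from 47.7% to 3.38%. As Gjb6 was set to 0 in Dab2-cKO replicate 1, the size of its fall on this scale is not measured. The order of the falls of Gjb2 and Gjb6 thus depends on how background is treated. An antisense RNA gene, Gm32912, overlaps 16.4% of the exon bases of Gjb6 on the opposite strand, and reads there cannot be told from those of Gjb6, as the strand setting used in counting was not given in the sources used here.

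Gjb5 encodes an epidermal β connexin from chromosome 4 (127248602 to 127252001, minus strand, ENSMUSG00000042357). For WT replicates 1 to 3 the normalized counts were 95.8, 93.9 and 126, and for the libraries labelled Dab2-cKO 124, 102 and 107. The genotypes overlapped, with means of 105 ± 18.3 and 111 ± 11.3 (SD, n = 3 each). The log2 fold change of 0.07 (SE 0.17, edgeR adjusted p = 0.812) had a 95% confidence interval from -0.26 to 0.41, so a change of the size seen in the other members lay outside it. The sign turned with other scalings, to -0.068 with upper-quartile scaling and to -0.35 with library size only, under which the median of all genes moved to -0.17 and -0.45.

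The members also changed by unequal amounts, which was measured as the log2 ratio of 2 members within each library, a value that does not depend on how libraries are scaled. Per kb of exon, Gja1 was under Gjb2 in every library labelled WT (log2 ratio -0.47, -0.54 and -0.53) and above it in every one labelled Dab2-cKO (2.68, 3.05 and 2.82). The order of these genes was thus turned around on this scale, with a difference of 3.36 between the genotype means, or 10.3-fold. The size of the difference does not depend on gene length, but the order does, since per kb of the main annotated transcript Gja1 was above Gjb2 in both genotypes. Gjb2 and Gjb5 changed their order as well. Gjb2 had 4.09, 4.30 and 3.81 log2 units more than Gjb5 in WT replicates 1 to 3, and its log2 ratio to Gjb5 was -1.68, -1.68 and -1.50 in those labelled Dab2-cKO. Between the neighbours Gjb2 and Gjb6 the log2 ratio moved from 3.97 ± 0.07 to 1.95 ± 0.25 (SD, n = 3 per genotype), a 4.07-fold larger fall of Gjb2 with no background subtracted. The level of Gjb6 near background limits how large its own fall could appear in this ratio. In each of the 6 pairs of members the genotypes did not overlap (exact 2-sided permutation test, p = 0.1, adjusted over the 6 pairs 0.1), and 0.1 is the smallest p that 3 libraries against 3 allow. The 6 ratios come from 4 genes and are not independent of each other or of the calls above. Of all genes tested, 17.7% were lower without overlap in the libraries labelled Dab2-cKO and 20.6% higher, and other pairs of genes were not examined.

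**Figure D2:**
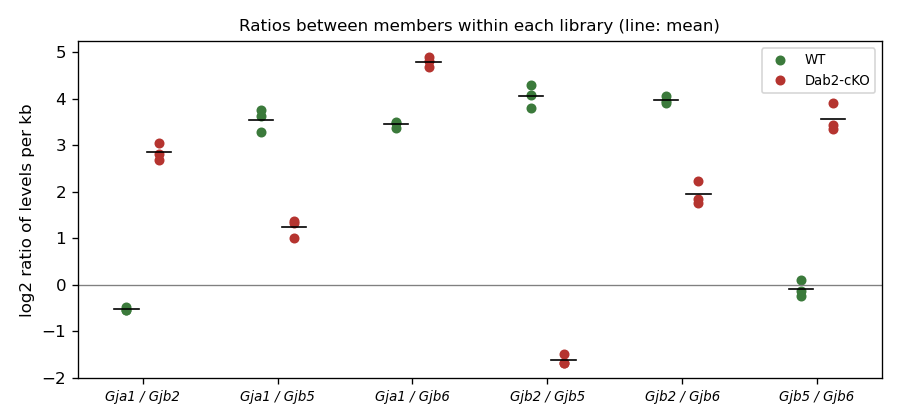
Log2 ratio of the levels per kb of exon for the 6 pairs of skin connexin genes, with 1 point per library and a line at the mean of each genotype. On this length scale Gja1/Gjb2 is below 0 in the 3 libraries labelled WT and above 0 in the 3 labelled Dab2-cKO, and Gjb2/Gjb5 changes in the opposite direction.

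Levels were compared between genes per kb of exon, using all annotated exons of a gene. In the libraries labelled WT, Gjb2 (1005 ± 63.3 normalized counts per kb, SD, n = 3) was above Gja1 (703 ± 25.5), and both were above every other connexin. Gjb6 (63.9 ± 3.57) and Gjb5 (60.3 ± 10.5), neighbours in positions 4 and 5 of 23, overlapped in range. In the libraries labelled Dab2-cKO, Gja1 led with 150 ± 6.42 per kb, and Gjb5 was in position 3 at 63.6 ± 6.49. Gjb2 stood in position 7 there, at 20.7 ± 2.09 per kb, and its range overlapped that of Panx1, next in the order. Gjb6 was in position 18, at 5.27 ± 0.65 per kb, where the median of the 1970 chemosensory receptor genes was 4.76 and their 95th percentile 13.1. Exon annotation matters for the order of the leading pair, since the exons of Gja1 add up to 12302 bases but its main annotated transcript has 4700. With the length of this transcript, Gja1 (1840 ± 66.7) was above Gjb2 (1464 ± 92.1) in the libraries labelled WT too, and Gjb6 (118 ± 6.58) was above Gjb5 (60.3 ± 10.5) without overlap.

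**Figure D3:**
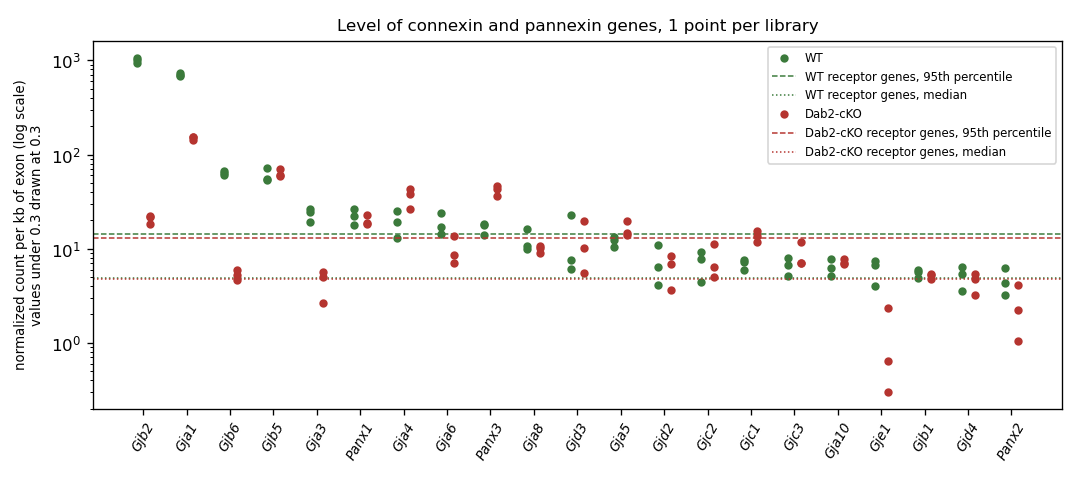
Level of connexin and pannexin genes as normalized counts per kb of exon (log axis), ordered by the mean in the libraries labelled WT, with 1 point per library. Dashed and dotted lines mark the 95th percentile and the median of the chemosensory receptor genes in each genotype, and Gjb6 moves from above the dashed line in WT to the dotted line in the libraries labelled Dab2-cKO.

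Summed over all 20 connexin genes, the level per kb was 2076, 2278 and 2218 in WT replicates 1 to 3, against 564, 561 and 562 in the other genotype. The family total was thus 3.90-fold lower. The 17 connexins other than Gja1, Gjb2 and Gjb6, a set formed after these values were seen, summed to 419 ± 15.5 and 387 ± 7.51 (SD, n = 3 each). Gjb2 made up 45.9% ± 0.75 of the WT family total and 3.68% ± 0.37 of that in the libraries labelled Dab2-cKO (SD, n = 3 per genotype). The share of Gja1 moved little beside it, from 32.1% ± 0.49 to 26.6% ± 1.20. Gjb5, whose own count did not pass the test, went from 2.75% ± 0.46 to 11.3% ± 1.13 of the smaller total, and Gjb6 from 2.92% ± 0.11 to 0.938% ± 0.12. The genotypes did not overlap in any of the 4 shares (exact 2-sided permutation test, p = 0.1 each, the smallest that this design allows). Shares are parts of a common total, so its fall moves the share of every gene in it. Genes near the receptor background did not overlap either, such as Gjb1 (0.25% to 0.92%) and Gja10 (0.29% to 1.29%). The lack of overlap is thus no result about the 4 members.

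**Figure D4:**
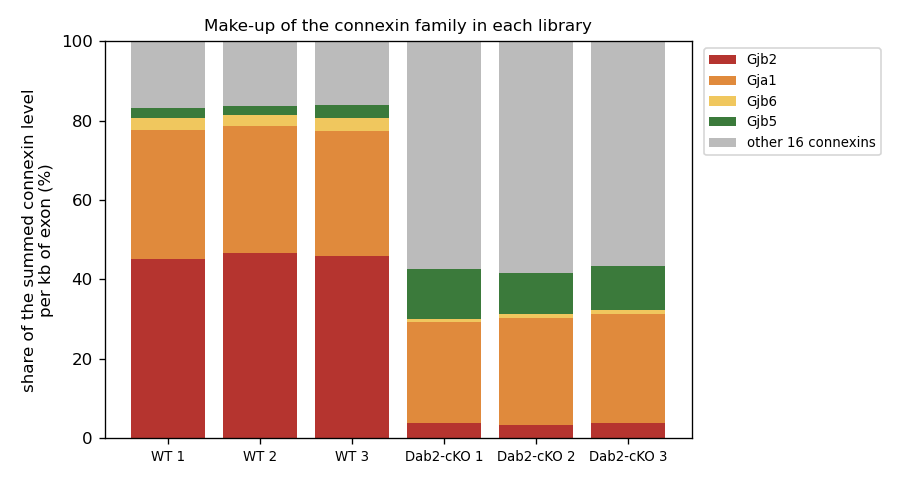
Share of the summed connexin level per kb of exon (percent, vertical axis) taken by each of the 4 skin connexin genes and by the other connexins together, in each of the 6 libraries. Gjb2 and Gja1 fill most of each bar labelled WT, while Gjb2 is a thin segment and Gjb5 a wider one in the bars labelled Dab2-cKO.

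Among the other 19 connexin and pannexin genes, 17 passed the expression filter, of which 3 were higher, 2 lower and 12 not called by edgeR, with a median log2 fold change of -0.16. The share called among all genes was 28.2%. Both genes outside the filter, Gjd3 and Gje1, had at most 17 counts in any library. Gja3, known as a lens connexin, lies beside Gjb2 and had 96.9, 125 and 134 normalized counts in WT replicates 1 to 3, against 28.6, 25.3 and 13.2 in the libraries labelled Dab2-cKO. It fell by 2.40 on the log2 scale (SE 0.24, edgeR adjusted p = 9.49e-14), to 4.42 normalized counts per kb of exon, close to the median of the receptor genes. All 3 connexin genes of the chromosome 14 cluster were therefore lower. Gja4, a connexin of arterial endothelium that lies near Gjb5 on chromosome 4, rose from 41.0 ± 12.9 to 77.1 ± 19.0 (normalized counts, SD, n = 3 per genotype; log2 fold change 0.91, edgeR adjusted p = 0.00159). With library size only, Gja4 lost its call (log2 fold change 0.48, edgeR adjusted p = 0.106), and the opposite-strand gene Gm69784 overlaps 31.8% of its exon bases.

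**Figure D5:**
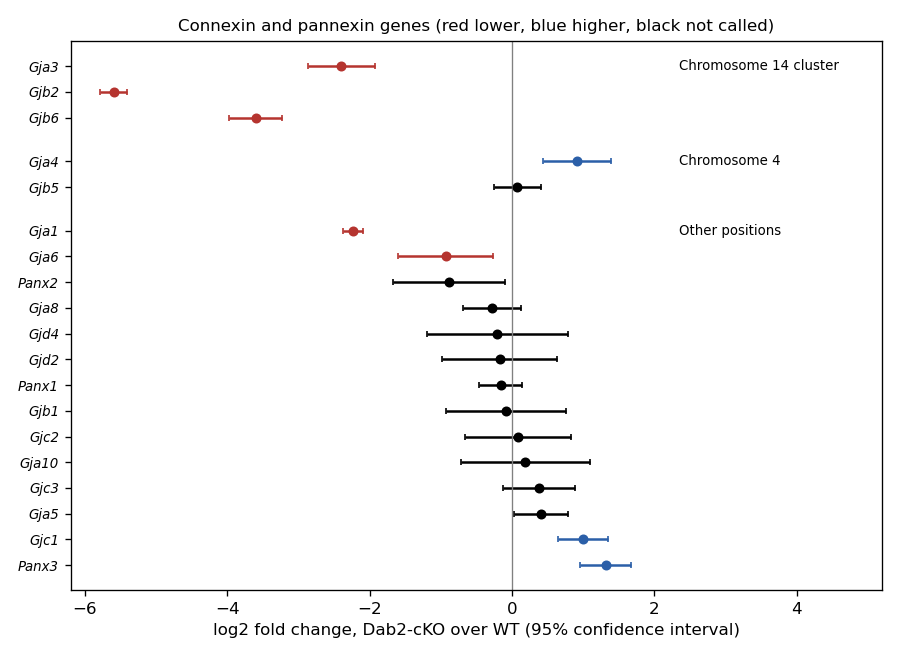
Log2 fold change of the libraries labelled Dab2-cKO over those labelled WT, with 95% confidence intervals from edgeR, for connexin and pannexin genes tested, grouped by position. The 3 genes of the chromosome 14 cluster and Gja1 lie to the left of 0, while the interval of Gjb5 on chromosome 4 includes 0.

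Elsewhere in the genome, Gjc1, known from smooth muscle and the conduction system of the heart, rose from a mean of 68.4 ± 8.37 to one of 136 ± 18.1 (normalized counts, SD, n = 3 each; log2 fold change 0.99, edgeR adjusted p = 2.34e-06). Panx3, a pannexin of skin, cartilage and bone, rose from 57.6 ± 8.51 to 144 ± 16.9 (log2 fold change 1.32, edgeR adjusted p = 3.68e-09). Gja5, the other arterial connexin, had 71.7 ± 8.40 and 95.8 ± 17.8 and was not called (log2 fold change 0.40, edgeR adjusted p = 0.113). Beside Gja4 and Gjc1, all 6 endothelial markers were higher in the libraries labelled Dab2-cKO, and the sum of 5 smooth muscle and pericyte markers, 4 of them higher, was 224 to 247 CPM in WT and 633.5 to 649.8. Their part in these rises was not tested. Gja6 fell by 0.93 on the log2 scale (edgeR adjusted p = 0.0271), which did not hold by DESeq2 (adjusted p = 0.0799) or without WT replicate 2 (edgeR adjusted p = 0.25), Dab2-cKO replicate 1 (0.139) or Dab2-cKO replicate 2 (0.0725). Panx1, which forms channels to the outside of the cell, was at 148 ± 28.1 and 133 ± 16.4 (SD, n = 3 each; log2 fold change -0.16, edgeR adjusted p = 0.509). Counting connexins and pannexins together, 11 of 23 were above the 95th percentile of the receptor genes in WT and 10 in the other genotype, so the remaining genes lay within the range of the background.

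Gap junctions are held and turned over by scaffolds, kinases, ubiquitin ligases and trafficking proteins. Of 25 such partners and regulators, all tested, 9 were higher, 5 lower and 11 not called, with a median log2 fold change of 0.13. Among all genes, 16.8% were higher and 11.5% lower, with a median of -0.02. These shares depend on how low the counts of the tested genes are. With a filter at a mean count of 50, 4461 of 14801 genes were higher and 4062 lower, and of the partners 9 and 10. Among those that fell were Prkca, a protein kinase C (log2 fold change -0.70, edgeR adjusted p = 2.36e-07), and E-cadherin, encoded by Cdh1 (-0.50, adjusted p = 2.91e-08). The largest rises were in the caveolins Cav1, from 478 ± 46.5 to 1305 ± 34.4 (SD, n = 3 each; log2 fold change 1.45, edgeR adjusted p = 4.44e-26), and Cav2 (1.12, adjusted p = 7.99e-16). N-cadherin, encoded by Cdh2, rose by 0.74 (adjusted p = 0.000628). The split of higher against lower calls depended on the scaling, with 9 and 10 by upper-quartile scaling and 3 and 14 by library size only, and Cdh2 was not called under the latter (0.32, adjusted p = 0.156).

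For each member, the genes with the most similar profile were found among the 10764 genes whose normalized count averaged at least 100, as the smallest root mean square difference of centred log2 values over the 6 libraries. Nearest to Gja1 were Cux1, a homeobox transcription factor (difference 0.06, 5309 and 1118 normalized counts in WT and Dab2-cKO), Slc25a37, a mitochondrial iron carrier (0.07), and Ggt1, a γ-glutamyltransferase (0.08). Nearest to Gjb2 were Tchhl1 (0.10, 3213 and 69.8 normalized counts), Crnn (0.13) and Prr9 (0.14). Tchhl1 and Crnn are relatives of trichohyalin, a protein of the inner root sheath. Gjb6 was closest to Cpm, a membrane carboxypeptidase (0.12, 2884 and 244 normalized counts), Sprr1a, a precursor of the cornified envelope (0.14), and Tgm6, a transglutaminase (0.17). Nearest to Gjb5 were Cry1 (0.04), Cyb5d1 (0.05) and Alox12, a lipoxygenase (0.05), which were not called either (edgeR adjusted p = 0.578, 0.881 and 0.78). As the 6 libraries form 2 groups, these profiles mostly reflect the size of the difference between the genotypes.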

How the data were processed

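Reads were trimmed (fastp), aligned to the GRCm39 mouse genome (HISAT2) and assigned to genes (featureCounts) by the authors, whose deposited counts are not normalized. Strand setting, treatment of reads with several positions, molecular identifiers and the annotation release were not given in the sources used here. The authors' deposited table of DESeq2 fold changes and p-values was not used. Columns named FL-FL were taken as Dab2-cKO from the series title. The libraries of a genotype are labelled as biological replicates. That each is a separate animal is not stated, so p-values measure the spread between these libraries.

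Counts were analysed in R 4.3.3. Genes were filtered and normalized by edgeR 4.0.16 (default expression filter, TMM) and compared by its robust quasi-likelihood test with Benjamini-Hochberg adjustment over all genes tested. The test was also run on simulated data, in which few genes changed, with rises and falls in equal number. Such data do not cover the difference in composition between these genotypes. Exon lengths were taken from GENCODE annotation of GRCm39. RefSeq promoter sequences come from a GRCm38.p6 table and were located in GRCm39 by exact match. Log2 ratios used a pseudocount of 0.5. Alternatives were DESeq2 1.42.0, other scalings and filters, a replicate block, a test against a 1.5-fold change and each library left out. The members and lists were chosen with earlier results of these data known. The named genes were the members, other connexins and pannexins above the receptor background, the 3 largest called rises and falls among the partners, and the 3 nearest genes per member, and some of these are not reported here. The length of the main transcript, and subtraction of the receptor background from the ratios, were added as alternatives after seeing the data. Other genes and observations named for their position were chosen after their values were seen. A count of 0 would allow a share of 2.56e-05% to 4.26e-05% of a library, taking 3 counts as the floor, and such limits cover counting error only.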

Additional observations from a re-analysis of the deposited data

How the results depend on the processing

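Gja1, Gjb2 and Gjb6 kept their direction and their call in all 14 alternatives, as did the count of 3 members called. With each library left out, Gja1 ranged from -2.28 to -2.20 (log2 fold change), Gjb2 from -5.67 to -5.55 and Gjb6 from -3.71 to -3.52. Gjb5 was called in none of the 14, and its sign turned with upper-quartile scaling (-0.068), library size only (-0.35), a filter at a mean count of 50 (-0.011) and with Dab2-cKO replicate 1 left out (-0.032), the range with any library left out being -0.032 to 0.24. Of the other connexins and pannexins, 8 were called with upper-quartile scaling (3 higher, 5 lower), 9 with library size only (2 higher, 7 lower) and 3 in a test against a 1.5-fold change, against 5, and 4 to 7 with a library left out. Among the partners and regulators, 3 passed the test against a 1.5-fold change and 13 to 16 the usual test with a library left out. Over all genes, 5387 were higher and 3682 lower, or 4281 and 5561 with upper-quartile scaling and 2686 and 11168 with library size only. Same-numbered libraries of the genotypes deviated together only weakly (correlations of 0.02, 0.01 and 0.01 across genes), though each number correlated best with its own. This check cannot exclude a pairing, and the main fit used none. With the replicate block the log2 fold changes were -2.23, -5.59, 0.08 and -3.59 for Gja1, Gjb2, Gjb5 and Gjb6, with 3, 5 and 14 calls in the lists.

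The difference in share of the connexin total, in percentage points, depended on the length used. For Gjb2 it was -42.2, or -24.1 without division by length, -33.3 with the main transcript and -44.3 after subtracting the receptor median. For Gjb5 the same settings gave 2.61, 4.97 and 9.77, against 8.56. For Gja1 it was -2.76 after subtracting the receptor median, against -5.48, and for Gjb6 -1.15 without length and -2.68 after subtraction, against -1.98. Exon length cancels in the within-library differences of the 6 pairs. With the receptor median subtracted, an alternative chosen after seeing the data, they were 3.70 for Gja1/Gjb2, -6.06 for Gjb2/Gjb5 and -2.36 for Gja1/Gjb5, against 3.36, -5.68 and -2.32, and the pairs with Gjb6 gave no value, since Gjb6 was under that median in Dab2-cKO replicate 1. With a library left out the differences were 3.27 to 3.45 for Gja1/Gjb2, -2.46 to -2.20 for Gja1/Gjb5, 1.28 to 1.40 for Gja1/Gjb6, -5.81 to -5.57 for Gjb2/Gjb5, -2.17 to -1.93 for Gjb2/Gjb6 and 3.48 to 3.77 for Gjb5/Gjb6. In the libraries labelled Dab2-cKO, the levels of Gjb6 and Gja3 could not be told from the receptor background.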

Other observations

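Other genes around the chromosome 14 connexin cluster were chosen by position after the values were seen. Their mean normalized counts were lower in the libraries labelled Dab2-cKO, by smaller amounts than those of the connexin genes there. Among all genes tested, 11.5% were called lower, and with a filter at a mean count of 50, 4062 of 14801 were. Zmym2, a zinc finger gene beyond Gja3, had 630, 727 and 922 counts in WT replicates 1 to 3 against 596, 487 and 581 in the libraries labelled Dab2-cKO, a log2 fold change of -0.28 (SE 0.08, edgeR adjusted p = 0.0053). Cryl1, which encodes a crystallin-like enzyme beyond Gjb6, had 102, 155 and 171 against 96, 97 and 75, a log2 fold change of -0.49 (SE 0.16, edgeR adjusted p = 0.0155). The lncRNA Gm4491, between Gjb2 and Gjb6, had 37, 15 and 27 counts against 10, 19 and 1, which overlap. Its log2 fold change of -1.24 was not called (edgeR adjusted p = 0.05001). The connexin genes of the cluster stood at -2.40 (Gja3), -5.60 (Gjb2) and -3.60 (Gjb6) on the same scale.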
